A study of Arabidopsis thaliana with 24 samples.

Results

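Transcript levels of 10 genes of salicylate synthesis and signalling were followed through leaves of Arabidopsis thaliana that carried altered forms of the histone variant H2A.Z and were treated with the hormone abscisic acid (ABA). The genes were taken by locus identifier from 22279 genes listed for each library: ICS1 (AT1G74710), EDS5 (AT4G39030), PBS3 (AT5G13320), EDS1 (AT3G48090), PAD4 (AT3G52430), NPR1 (AT1G64280), NPR3 (AT5G45110), WRKY70 (AT3G56400), PR2 (AT3G57260) and PR5 (AT1G75040). All 10 had an entry, and 9 held enough counts to be tested. PR2 did not.

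Leaves of 3-week-old plants of 4 genotypes were painted for 4 h with ABA at 10 uM or with a mock solution of water and DMSO, both with the wetting agent Silwet L-77 at 0.01%. Each of the 8 groups had 3 biological replicates. Per the labels, K>R 3, K>R 1-9 and Delta28 are lines in an h2a.z null background that express the H2A.Z gene HTA11 in altered form, and the fourth genotype was wild type (WT). In K>R 3 the third lysine of the tail, residue 13, was replaced by arginine, in K>R 1-9 the same was done to each of the 9 N-terminal lysines, and in Delta28 the first 28 amino acids were absent. The labels list no line with unaltered HTA11 in the null background, so the altered tail cannot be told apart from the null background and the transgene in any difference from WT. They give neither the promoter of the transgenes nor the number of independent lines. The question behind the study, by its title, was how the H2A.Z tail changes the size of the response to ABA.

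Salicylate is the hormone of defence against pathogens that feed on living tissue. Most of it is made from chorismate, which isochorismate synthase (ICS1) turns into isochorismate in the plastid. The transporter EDS5 passes isochorismate out of the plastid and PBS3 joins it to glutamate, after which the product breaks down to salicylate. EDS1 and PAD4 are paired lipase-like proteins that relay signals from immune receptors and raise ICS1 transcription. NPR1 is a salicylate receptor that activates transcription with TGA factors, whereas the receptor NPR3 represses the same genes. WRKY70 is a transcription factor downstream of NPR1, and PR2 (a glucanase) and PR5 (a thaumatin-like protein) are secreted defence proteins used as markers of the pathway. ABA is known to oppose salicylate-dependent defence in leaves.

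Levels are in CPM, counts scaled to a common library total, and differences are log2 fold changes with their standard error (SE) from 1 edgeR quasi-likelihood fit over all 24 libraries. A gene was called when its Benjamini-Hochberg adjusted p over 13874 genes was below 0.05. Totals ranged from 1565518 (WT mock replicate 2) to 15086279 counts, with a median of 7142427. The deposited gene models lack the exon of lowest coordinate, which on the minus strand is the one with the 3′ end that this assay reads. NPR1, EDS1, WRKY70 and PR2 are minus-strand genes, so their levels rest on reads that fall elsewhere in the gene. The genotype labels could be checked in part. HTA9, an H2A.Z gene, was at 53.7 to 109 CPM in the 18 mutant libraries and at 301 to 436 CPM in the 6 WT libraries. HTA11 was at 870 CPM in K>R 3 mock replicate 2, against 5.87 to 38.4 CPM in the other 5 K>R 3 libraries, so this library stands apart from its group. HTA11 was at 393 to 914 CPM in K>R 1-9 libraries, at 2.52 to 9.51 CPM in Delta28 libraries and at 4.70 to 10.3 CPM in WT libraries. The library labelled K>R 3 mock replicate 2 was thus at a level of K>R 1-9 libraries, and its label is in doubt. No Delta28 library was above the WT range, and K>R 3 ABA replicate 2 (5.87 CPM) lay within it. Leaving out the library in doubt changed the count of members called in no comparison of K>R 3 below. The ABA-induced gene KIN1 was at 1520 to 4732 CPM in ABA libraries and at 55.4 to 661 CPM in mock libraries. Leaf mesophyll markers were abundant, with a summed level of 991 to 7492 CPM in ABA libraries and 5588 to 20770 CPM in mock libraries, and 6 of 6 fell with ABA over the 4 genotypes. LHCB3 made up most of this sum, with 1339284 counts over all libraries. The other mesophyll markers, all minus-strand genes, had 17095 to 121855 counts each. The guard cell list gave 75 to 393 CPM, with KAT1 higher and GC1 and FAMA lower with ABA. The vascular list gave 57 to 265 CPM, with AHA3 higher. Of the epidermis list, ATML1 was at 112 to 232 CPM and was not called, and PDF1 had 0 counts. Flower markers summed to at most 6.26 CPM, with AP3 at 0, and dividing cell markers to at most 0.626 CPM. PDF1, AP3 and the dividing cell markers are minus-strand genes whose deposited models lack the 3′ exon. Their near absence of counts therefore says nothing on the presence of such cells. The part of cell composition in the changes below was not tested, and in these bulk samples fewer cells of a type and less RNA per cell cannot be told apart.

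**Figure D1:**
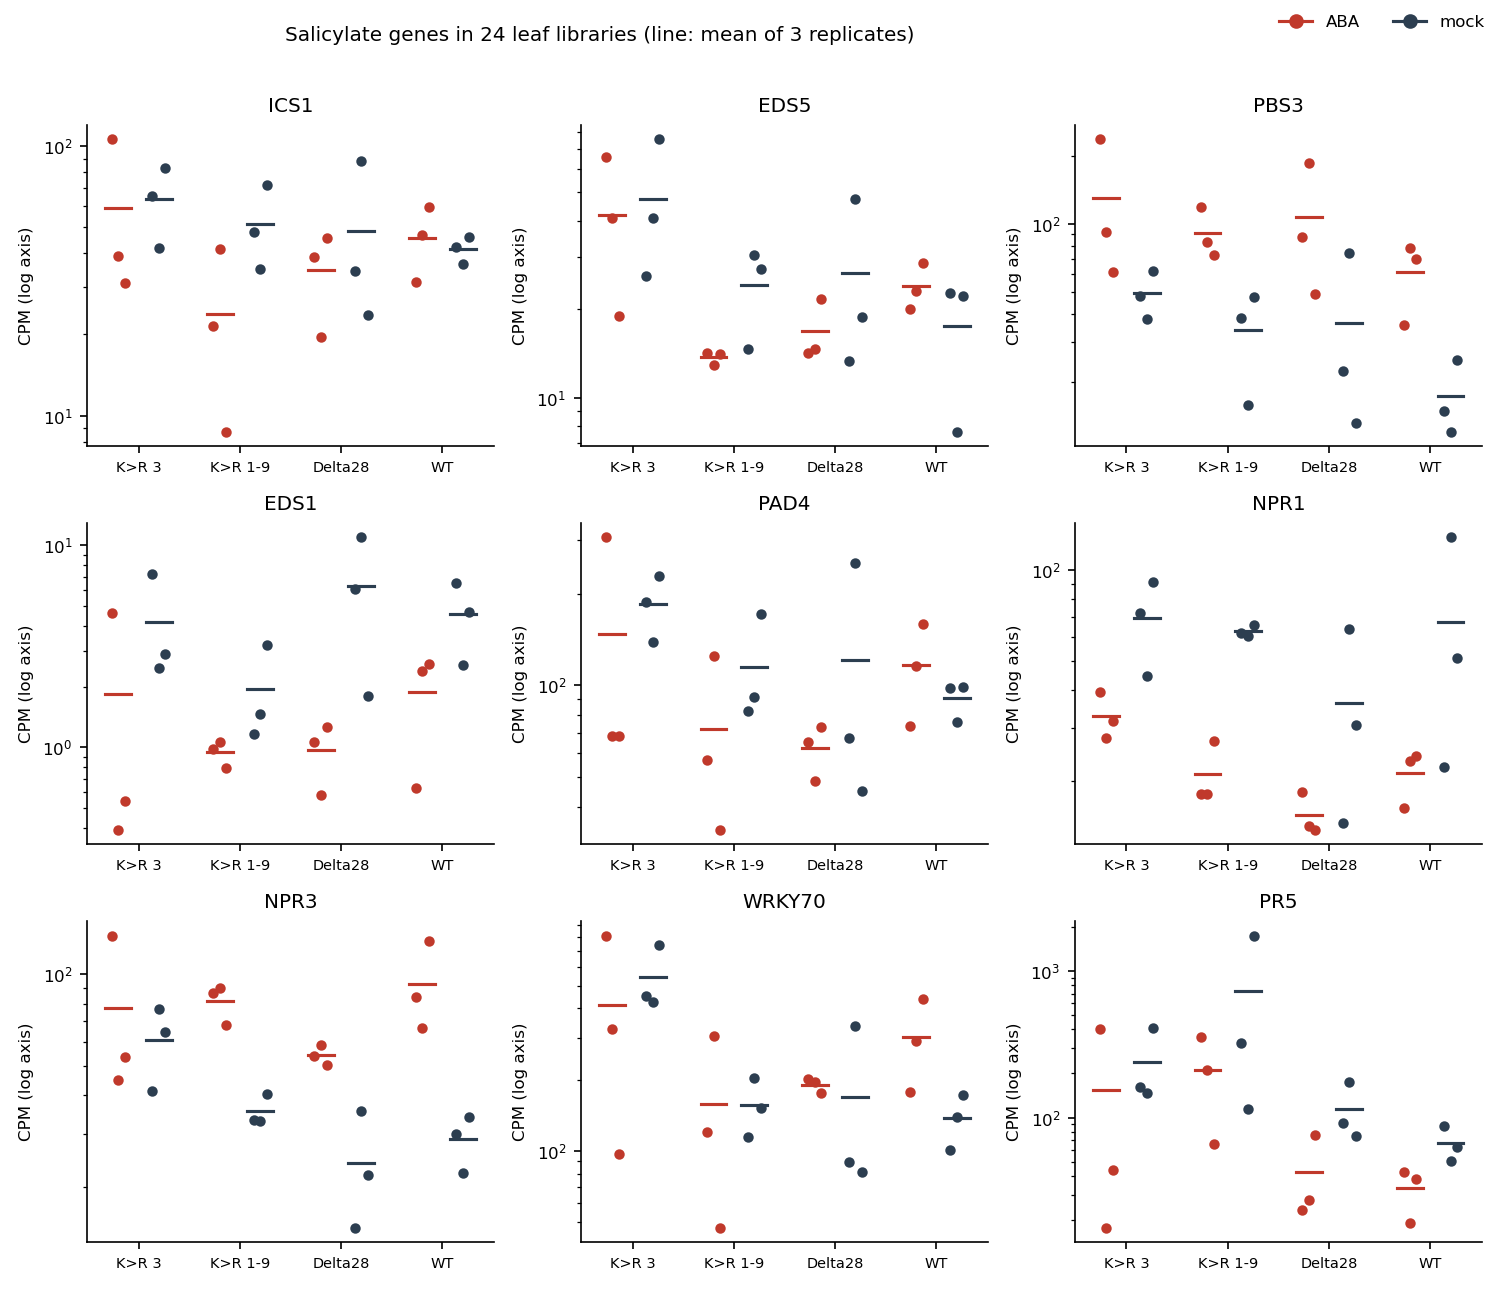
Level of the 9 tested genes in each of the 24 libraries, in CPM on log axes, by genotype along the horizontal axis, with ABA libraries in red left of mock libraries in dark grey-blue. Each point is 1 library and each line the mean of 3 replicates. PBS3 and NPR3 sit higher and NPR1 lower in ABA libraries, and PR5 is highest in K>R 1-9.

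Among the genes of salicylate synthesis, PBS3 rose with ABA while ICS1 and EDS5 were not called. PBS3 was at 236, 91.8 and 61.4 CPM in K>R 3 ABA leaves and at 48.3, 37.9 and 62.2 CPM in K>R 3 mock leaves. In K>R 1-9 it was at 118, 83.1 and 73.1 CPM with ABA and at 38.4, 16.0 and 47.8 CPM in mock. Delta28 leaves had 87.2, 186 and 49.1 CPM with ABA and 22.4, 74.3 and 13.2 CPM in mock. WT leaves had 35.7, 78.6 and 69.9 CPM with ABA and 15.0, 12.1 and 25.1 CPM in mock. Every ABA library was above every mock library of its genotype in K>R 1-9 and WT, and the treatments overlapped in K>R 3 and Delta28. Averaged over the 4 genotypes, with equal weight, PBS3 rose by a log2 fold change of 1.60 (SE 0.29, adjusted p = 0.000134 in edgeR). The separate values were 1.45 in K>R 3, 1.51 in K>R 1-9, 1.67 in Delta28 and 1.79 in WT, none of which passed alone (adjusted p from 0.0528 to 0.106 in edgeR). DESeq2 called PBS3 in Delta28 (adjusted p = 0.0215) and in WT (adjusted p = 0.0235).

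ICS1 spread widely within groups. It was at 31.0 to 106 CPM in K>R 3 ABA, 8.72 to 41.5 CPM in K>R 1-9 ABA, 19.5 to 45.6 CPM in Delta28 ABA and 31.3 to 59.3 CPM in WT ABA leaves. In mock leaves it was at 41.9 to 83.3 CPM in K>R 3, 34.9 to 71.7 CPM in K>R 1-9, 23.6 to 87.8 CPM in Delta28 and 36.4 to 46.2 CPM in WT. Every pair of groups compared overlapped. The ABA difference averaged -0.34 on the log2 scale (SE 0.25, 95% interval -0.87 to 0.19) and was not called. EDS5 was at 19.0 to 65.9 CPM in K>R 3 ABA and 26.0 to 75.7 CPM in K>R 3 mock leaves, against 20.0 to 28.7 CPM in WT ABA and 7.67 to 22.7 CPM in WT mock leaves. In K>R 1-9 it was at 12.9 to 14.2 CPM with ABA and 14.6 to 30.5 CPM in mock, and in Delta28 at 14.2 to 21.7 CPM with ABA and 13.3 to 47.3 CPM in mock. All 3 K>R 3 mock libraries thus lay above the 3 WT mock libraries, and all 3 K>R 1-9 ABA libraries below those of K>R 1-9 mock and of WT ABA leaves. The nearest K>R 1-9 libraries were at 14.17 CPM with ABA and 14.6 CPM in mock (159 and 113 counts), a gap within counting error. EDS5 was not called with ABA (log2 fold change -0.26 averaged, SE 0.23).

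Of the paired regulators, EDS1 fell with ABA and PAD4 was not called. EDS1 counts were low, 560 over all libraries. It was at 4.60, 0.392 and 0.545 CPM in K>R 3 ABA and 7.18, 2.47 and 2.90 CPM in K>R 3 mock leaves. The other ABA groups were at 0.980, 1.06 and 0.793 CPM in K>R 1-9, 1.07, 0.584 and 1.26 CPM in Delta28 and 0.626, 2.40 and 2.59 CPM in WT. Their mock groups were at 1.16, 1.47 and 3.22 CPM in K>R 1-9, 6.08, 10.9 and 1.80 CPM in Delta28 and 6.48, 2.56 and 4.69 CPM in WT. ABA and mock libraries were apart in K>R 1-9 and Delta28, and met in K>R 3 and, narrowly, in WT. The nearest libraries were at 1.06 and 1.16 CPM in K>R 1-9 (11 and 9 counts). In Delta28 they were at 1.26 and 1.80 CPM (4 and 9 counts). Gaps this small lie within counting error at such counts. Averaged over genotypes EDS1 fell by 1.52 on the log2 scale (SE 0.39, adjusted p = 0.00315 in edgeR). Within single genotypes it was called in Delta28, where it fell by 2.65 (SE 0.80, adjusted p = 0.0299), a call lost without any 1 of Delta28 mock replicate 1 or 2 or Delta28 ABA replicate 1 or 2 (adjusted p up to 0.124 in edgeR). EDS1 has a near-identical neighbour, EDS1B (AT3G48080, 391 counts), between which reads may be split. EDS1B averaged -0.79 with ABA (SE 0.43) and was not called.

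PAD4 was at 305, 68.1 and 68.3 CPM in K>R 3 ABA and 187, 139 and 229 CPM in K>R 3 mock leaves. WT leaves had 73.9, 116 and 159 CPM with ABA and 98.0, 76.0 and 99.1 CPM in mock. Replicate 1 of the K>R 3 ABA leaves was thus far above the other 2, whereas the K>R 3 mock libraries were all above those of WT mock. In K>R 1-9 it was at 33.7 to 125 CPM with ABA and 82.4 to 171 CPM in mock, and in Delta28 at 48.7 to 73.0 CPM with ABA and 45.2 to 251 CPM in mock. The averaged ABA difference was -0.34 on the log2 scale (SE 0.28) and was not called.

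Of the salicylate receptors, NPR3 rose and NPR1 fell with ABA. NPR4, a receptor related to NPR3, was not called (averaged log2 fold change -0.05, SE 0.36), nor was NPR2, a relative of NPR1 (-0.46, SE 0.47). NPR4 is a minus-strand gene with 411 counts, without its 3′ exon in the deposited model. NPR3 was at 134, 45.0 and 53.6 CPM in K>R 3 ABA and 41.4, 77.0 and 64.5 CPM in K>R 3 mock leaves. In K>R 1-9 it was at 86.5, 90.2 and 68.0 CPM with ABA and 33.3, 33.0 and 40.6 CPM in mock. Delta28 leaves had 54.0, 58.4 and 50.3 CPM with ABA and 14.7, 35.5 and 22.0 CPM in mock, and WT leaves 84.2, 66.4 and 128 CPM with ABA and 30.0, 22.4 and 34.0 CPM in mock. The ABA libraries were all above the mock libraries in K>R 1-9, Delta28 and WT, and the treatments overlapped in K>R 3. The averaged log2 fold change of NPR3 was 1.16 (SE 0.17, adjusted p = 1.79e-05 in edgeR). It was 1.26 in K>R 1-9 (SE 0.35, adjusted p = 0.0254), 1.27 in Delta28 (SE 0.35, adjusted p = 0.0183) and 1.70 in WT (SE 0.35, adjusted p = 0.00688), all called, and 0.43 in K>R 3 (SE 0.34, adjusted p = 0.461 in edgeR). The difference between the responses of K>R 3 and WT was -1.27 on the log2 scale (SE 0.49, 95% interval -2.30 to -0.24). Its unadjusted p was 0.0161 and its adjusted p 1 in edgeR, so that a different NPR3 response in K>R 3 was not shown. Of the calls in single genotypes, that in WT was lost without WT mock replicate 2 (adjusted p = 0.0505), and that in K>R 1-9 without any library but ABA replicate 3 (up to 0.0882), and that in Delta28 without any of mock replicates 1 and 3 and ABA replicates 1 and 2 (up to 0.113 in edgeR). The averaged call held without each library in turn.

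NPR1 was at 39.5, 27.8 and 31.8 CPM in K>R 3 ABA and 72.0, 44.7 and 91.6 CPM in K>R 3 mock leaves. In K>R 1-9 it was at 18.2, 18.1 and 27.1 CPM with ABA and 62.1, 60.5 and 65.7 CPM in mock, the tightest mock group. Delta28 leaves had 18.5, 14.3 and 13.8 CPM with ABA and 14.6, 63.8 and 30.8 CPM in mock, and WT leaves 16.3, 23.3 and 24.3 CPM with ABA and 22.3, 128 and 51.3 CPM in mock. ABA libraries lay below all mock libraries in K>R 3 and K>R 1-9, while in Delta28 and WT mock replicate 1 reached the ABA range. The averaged log2 fold change of NPR1 was -1.29 (SE 0.23, adjusted p = 0.000105 in edgeR). Within genotypes it fell by 1.5 in K>R 1-9 (SE 0.45, adjusted p = 0.0398) and by 1.54 in WT (SE 0.46, adjusted p = 0.0486), and was not called in K>R 3 (-1.0) or Delta28 (-1.11). Both single calls were close to the threshold in edgeR: that in WT was lost without any library but WT mock replicate 1 (adjusted p up to 0.371) and that in K>R 1-9 without any of its 6 (up to 0.127). Counts on the minus strand, where NPR1 and EDS1 lie, made up 13.6% to 17.6% of the total (median 15.9%) in ABA libraries and 12.6% to 17.2% (median 14.0%) in mock libraries, and the part of this difference in the result was not tested.

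WRKY70 was not called with ABA and was highest in K>R 3. It was at 814, 328 and 96.6 CPM in K>R 3 ABA and 454, 427 and 742 CPM in K>R 3 mock leaves. WT leaves had 177, 292 and 438 CPM with ABA and 101, 139 and 173 CPM in mock. K>R 3 libraries lay above all WT libraries in mock leaves and overlapped with them under ABA. In K>R 1-9 it was at 47.2 to 305 CPM with ABA and 114 to 203 CPM in mock, and in Delta28 at 175 to 202 CPM with ABA and 81.3 to 336 CPM in mock. The ABA difference ranged from -0.33 in K>R 3 to 1.17 in WT on the log2 scale (SE 0.60 to 0.61), with an average of 0.29 (SE 0.30).

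Of the secreted defence proteins, PR5 was higher in K>R 1-9 than in WT and fell with ABA on average. PR5 was at 352, 212 and 66.0 CPM in K>R 1-9 ABA leaves and at 324, 115 and 1738 CPM in K>R 1-9 mock leaves. WT leaves had 42.9, 19.1 and 38.0 CPM with ABA and 87.9, 50.5 and 63.5 CPM in mock. Within each treatment the 3 K>R 1-9 libraries were all above the 3 WT libraries. K>R 3 leaves had 402, 17.8 and 44.1 CPM with ABA and 162, 146 and 409 CPM in mock, and Delta28 leaves 23.4, 27.3 and 76.4 CPM with ABA and 92.0, 174 and 75.7 CPM in mock. Averaged over both treatments, PR5 was higher in K>R 1-9 than in WT by a log2 fold change of 3.15 (SE 0.67, 95% interval 1.73 to 4.57, adjusted p = 0.0112 in edgeR). The call held without each of the 12 libraries in turn (adjusted p up to 0.0391 in edgeR). In single treatments the log2 fold change was 3.48 in mock (SE 0.96, adjusted p = 0.114) and 2.82 with ABA (SE 0.94, adjusted p = 0.240), neither of them called in edgeR. With ABA, PR5 fell by 1.16 on the log2 scale averaged over genotypes (SE 0.44, adjusted p = 0.0393 in edgeR), and this call was lost without any 1 of 10 of the 24 libraries (adjusted p up to 0.138): K>R 3 mock replicate 3 and ABA replicate 3, K>R 1-9 mock replicate 3 and ABA replicates 2 and 3, Delta28 mock replicate 2 and ABA replicates 1 and 2, and WT mock replicate 1 and ABA replicate 2.

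PR2 had 1 count in all 24 libraries together, in K>R 1-9 mock leaves. At 3 counts the detection floor of a single library was 0.199 to 1.92 CPM, for counting error only. The deposited model of this minus-strand gene is 176 bases long and lacks its 3′ exon, against 1249 to 1477 bases for its full transcripts in the TAIR10.1 RefSeq annotation. The near absence of counts therefore says nothing on the expression of PR2.

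Read against the whole transcriptome, the members answered ABA about as often as other genes. Averaged over the 4 genotypes, 5 of 9 were called, PBS3 and NPR3 higher and EDS1, NPR1 and PR5 lower, where 43.5% of all 13874 genes were called. In single genotypes 0 of 9 were called in K>R 3 (all genes 10.8%), 2 in K>R 1-9 (NPR3 and NPR1; all genes 9.31%), 2 in Delta28 (NPR3 and EDS1; all genes 14.2%) and 2 in WT (NPR3 and NPR1; all genes 5.77%). In K>R 3 the members with an unadjusted p below 0.05 were PBS3 and NPR1 (3639 of all 13874 genes), and DESeq2 called 0 members there too. Without K>R 3 ABA replicate 1, in which all 9 members were the highest of the 3 replicates, EDS1 was called in K>R 3 (log2 fold change -2.98, adjusted p = 0.0265 in edgeR). The median log2 fold change of the 9 was -0.34 on average over genotypes, beside -0.03 for all genes. No interaction was called: 0 of 9 members differed in ABA response from WT in K>R 3, K>R 1-9 or Delta28 (all genes 0%, 0% and 0%). At an unadjusted p below 0.05 in edgeR there were 1 (NPR3), 0 and 0 members, beside 512, 456 and 445 of all 13874 genes. DESeq2 called 0 members in each line.

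**Figure D2:**
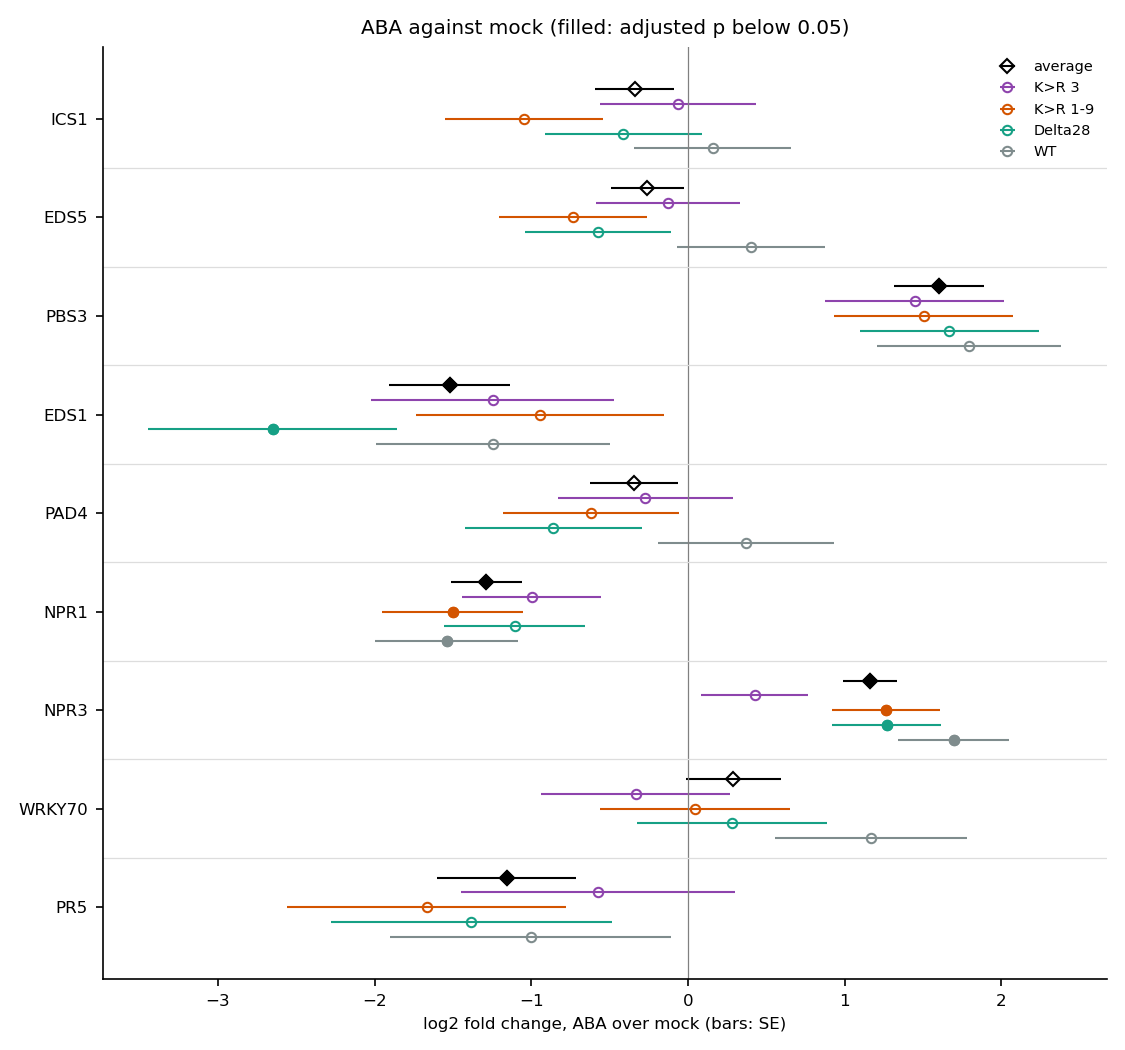
Log2 fold change of ABA over mock for the 9 tested genes (horizontal axis) in K>R 3, K>R 1-9, Delta28 and WT and averaged over them (diamonds). Bars are SE, and filled symbols passed an adjusted p of 0.05. PBS3 and NPR3 are right of 0 and EDS1, NPR1 and PR5 left of it in all 4 genotypes, while ICS1, EDS5, PAD4 and WRKY70 lie on both sides.

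Against WT, 1 member, PR5 in K>R 1-9, was called. Mesophyll markers in sum, mostly LHCB3 as given above, were at 5588 to 10570 CPM in K>R 3 mock leaves and 14920 to 19910 CPM in WT mock leaves. Their part in the differences below was not tested, and none of the 6 was called in any comparison with WT. In mock leaves 0 of 9 were called in K>R 3 (all genes 0.00721%), K>R 1-9 (0.245%) and Delta28 (0.159%), and with ABA likewise 0 in K>R 3 (0.00721%), K>R 1-9 (0.101%) and Delta28 (0.115%). Unadjusted p-values below 0.05 in edgeR numbered 4, 1 and 0 in mock and 1, 1 and 0 with ABA for these lines. Over all 13874 genes they numbered 1794, 2004 and 1232 in mock and 1199, 1588 and 1116 with ABA. DESeq2 called 1, PR5 in K>R 1-9 mock leaves (log2 fold change 3.50, adjusted p = 0.0178), and 0 in the other 5 comparisons. With both treatments averaged, edgeR called PR5 in K>R 1-9 (1 of 9, all genes 5.31%), 0 in K>R 3 (all genes 1.02%, 4 at an unadjusted p below 0.05) and 0 in Delta28 (all genes 1.36%, 1 at an unadjusted p below 0.05). Over all 13874 genes the unadjusted p was below 0.05 in 2411 for K>R 3 and in 1958 for Delta28. DESeq2 called 3 members in K>R 3 and 0 in Delta28. The share of all genes called by DESeq2 is not given here.

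The K>R 3 line had the most members above WT without a call. In mock leaves EDS5, PBS3, PAD4, NPR3, WRKY70 and PR5 were higher in all 3 K>R 3 libraries than in all 3 WT libraries, 6 of 9 tested members, where 12.8% of all tested genes lay that way. Members varied together among replicates of a group, as given below, so these are not 6 independent results. Their log2 fold changes ran from 1.00 (PAD4, SE 0.56) to 1.97 (WRKY70, SE 0.63), with adjusted p from 0.279 to 0.446 in edgeR. The library labelled K>R 3 mock replicate 2, whose label is in doubt, was the lowest of the 3 in 7 of 9 members. Averaged over both treatments the log2 fold changes were 2.01 for PR5 (SE 0.64), 1.27 for PBS3 (SE 0.41), 1.22 for WRKY70 (SE 0.43) and 1.08 for EDS5 (SE 0.33), with adjusted p from 0.109 to 0.149 in edgeR. Each library was also left out in turn. The most calls came without K>R 3 ABA replicate 3, where all 4 were called. Their log2 fold changes were then 2.22, 1.43, 1.44 and 1.24, with adjusted p from 0.0249 to 0.0437 in edgeR. This is the extreme of these fits, so it shows the dependence on single libraries and adds no support. DESeq2 on all libraries called PR5, EDS5 and PBS3 (adjusted p 0.0494, 0.0366 and 0.0341).

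**Figure D3:**
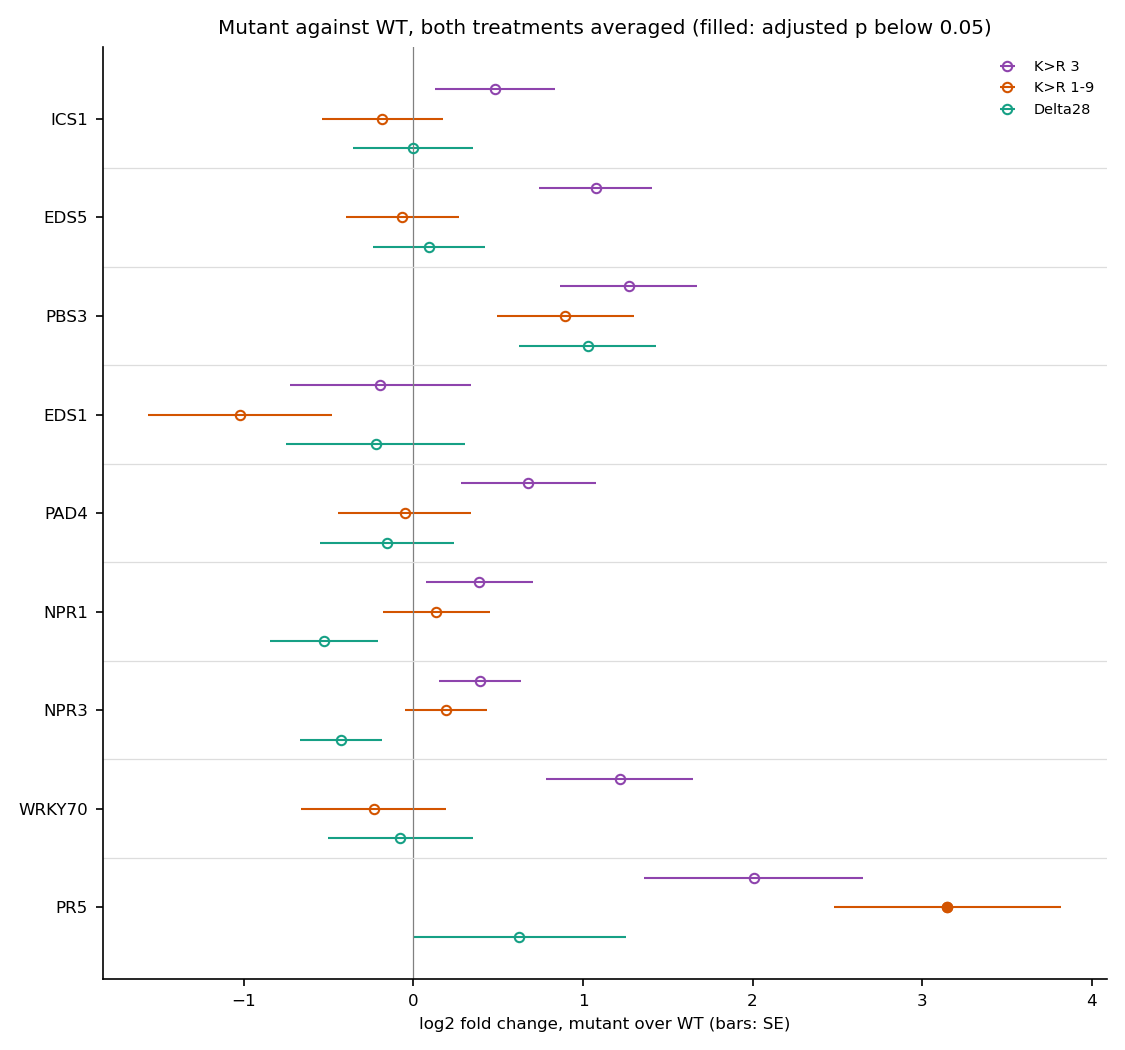
Log2 fold change of each mutant line over WT for the 9 tested genes (horizontal axis), averaged over ABA and mock leaves. Bars are SE, and the filled symbol, PR5 in K>R 1-9 at 3.15, is the one that passed an adjusted p of 0.05. K>R 3 values are above 0 in 8 of 9 genes, all but EDS1.

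Between the mutant lines, with both treatments averaged, PR5 was higher in K>R 1-9 than in Delta28 by a log2 fold change of 2.53 (SE 0.65, adjusted p = 0.0349 in edgeR). It was the single member called there (1 of 9, all genes 4.43%), and the call was lost without any 1 of 8 of the 12 libraries (adjusted p up to 0.103), all 6 of Delta28 among them along with K>R 1-9 mock replicate 3 and ABA replicate 1. The vascular markers SUC2 and AHA3 were lower in K>R 3 than in Delta28 (log2 fold change -0.95 and -0.63), and their part was not tested. K>R 3 against Delta28 had 0 of 9 called (all genes 3.30%), with 6 at an unadjusted p below 0.05, beside 2682 of all 13874 genes. DESeq2 called 2, WRKY70 and NPR3. The values were 1.29 for WRKY70 (SE 0.43), 0.98 for EDS5 (SE 0.33), 0.92 for NPR1 (SE 0.32) and 0.82 for NPR3 (SE 0.24). With each library left out in turn, the most calls came without Delta28 mock replicate 2, the highest of its group in all 9 members. EDS5, WRKY70, NPR1, NPR3 and PAD4 were then called (log2 fold changes 1.33, 1.75, 1.24, 1.00 and 1.35, adjusted p from 0.0255 to 0.0432 in edgeR). This too is the extreme of such fits and adds no support. Without K>R 3 ABA replicate 3 the count was 3 (WRKY70, NPR3 and EDS5). K>R 3 against K>R 1-9 had 0 of 9 called (all genes 0.793%). There 2 had an unadjusted p below 0.05 (2443 of all 13874 genes), WRKY70 (1.45, SE 0.44) and EDS5 (1.14, SE 0.33). DESeq2 called the same 2 genes, and so did edgeR without K>R 3 ABA replicate 3. The comparisons share libraries and are not independent of each other. HTA11 levels also differed between the lines, with K>R 1-9 far above Delta28, as given above. The altered tail cannot be told apart from this level and the transgene in these differences.

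The members varied together among replicates of the same group. For each library the deviation of log2(CPM + 1) from the mean of its group was taken, which removes genotype and treatment, and pairs of genes were correlated over the 24 libraries with 100000 permutations within groups. All 36 pairs had a positive Pearson r, from 0.06 to 0.94, and 14 passed a Benjamini-Hochberg adjusted permutation p of 0.05, 10 of them also by Spearman's rho. ICS1 and PAD4 gave r = 0.94 and rho = 0.93 (permutation p = 1.0e-05, the smallest these permutations can give, adjusted p = 0.00036), and r was again 0.94 without the 2 libraries farthest from the median of ICS1. Among all 13873 other genes tested PAD4 ranked 1 in r with ICS1. For the other members the closest member ranked 2 (EDS1), 3 (PAD4), 22 (WRKY70), 93 (EDS5), 162 (PR5), 201 (NPR3), 310 (PBS3) and 2235 (NPR1). EDS1 and PAD4 gave r = 0.81 and rho = 0.76 (adjusted permutation p = 0.00396 and 0.00624; 0.72 without the 2 farthest), and PAD4 ranked 2 of all genes for EDS1.

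Further pairs led by the same genes were PAD4 with WRKY70 (r = 0.84, rho = 0.73, adjusted permutation p = 0.0102 and 0.0209), ICS1 with WRKY70 (r = 0.82, rho = 0.68, 0.0102 and 0.0252) and ICS1 with EDS1 (r = 0.72, rho = 0.70, 0.00396 and 0.00624). PR5 followed ICS1 (r = 0.70, rho = 0.71) and PAD4 (r = 0.70, rho = 0.67), with adjusted permutation p from 0.0184 to 0.0252. Without the 2 farthest libraries these 5 pairs gave r = 0.76, 0.74, 0.73, 0.68 and 0.61. The other 7 pairs past the threshold by Pearson r gave 0.59 to 0.70 with all libraries and 0.40 to 0.61 without the 2 farthest, with PBS3 and WRKY70 at the low end of both. For pairs with NPR1 r was 0.06 to 0.32, none past the threshold (adjusted permutation p from 0.203 to 0.790). These low values rest in part on 2 libraries: without K>R 3 mock replicate 2 and WT mock replicate 2, r of NPR1 was 0.57 with NPR3, 0.55 with EDS5, 0.50 with PBS3 and 0.43 with PAD4, and 0.11 to 0.39 with the other 4. The median r of a member with all other tested genes was 0.03 to 0.08, and with the other members 0.22 for NPR1 and 0.50 to 0.70 for the other 8, over all 24 libraries. The pairs share libraries and scaling.

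**Figure D4:**
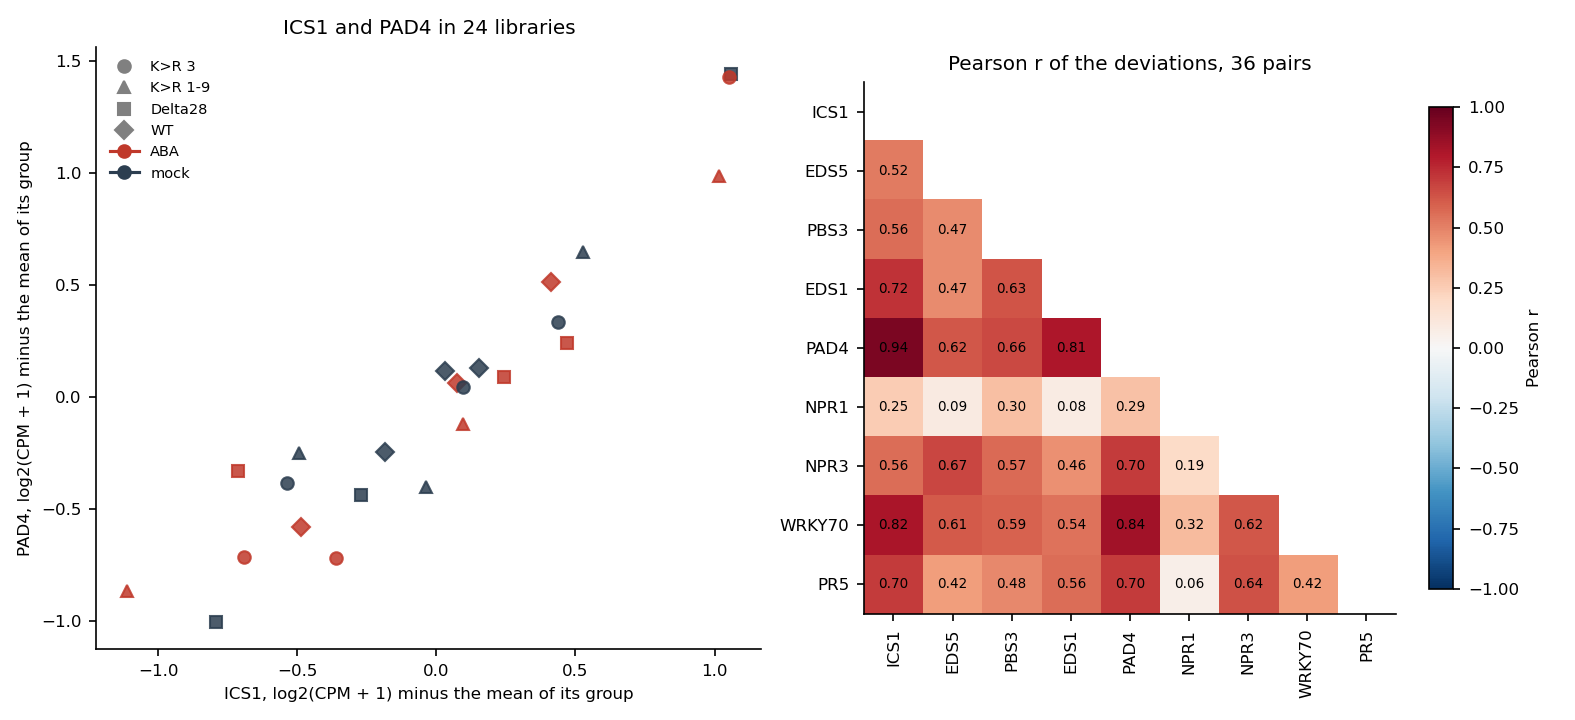
Left, deviation of PAD4 (vertical axis) against that of ICS1 (horizontal axis), both as log2(CPM + 1) minus the mean of the group, in 24 libraries marked by genotype and treatment. The points lie along 1 line (r = 0.94), with Delta28 mock replicate 2 and K>R 3 ABA replicate 1 together at the upper end. Right, Pearson r of all 36 pairs, 0.06 to 0.32 in those with NPR1, which reach 0.57 without K>R 3 mock replicate 2 and WT mock replicate 2.

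By mean level over the 8 groups, ICS1, EDS5, PAD4, NPR1 and WRKY70 were each highest in K>R 3 mock leaves, at 63.5 ± 20.8, 47.5 ± 25.5, 185 ± 45.1, 69.4 ± 23.5 and 541 ± 175 CPM (mean ± SD, n = 3, with the library of doubtful label included). PBS3 was highest in K>R 3 ABA leaves (130 ± 93.2 CPM), NPR3 in WT ABA leaves (93.0 ± 31.9 CPM), EDS1 in Delta28 mock leaves (6.28 ± 4.58 CPM) and PR5 in K>R 1-9 mock leaves (726 ± 883 CPM, SD, n = 3). ICS1 and EDS5 were lowest in K>R 1-9 ABA leaves, at 23.9 ± 16.5 and 13.7 ± 0.687 CPM. PBS3 was lowest in WT mock leaves at 17.4 ± 6.82 CPM. Down these orders, which the same means set, neighbouring groups overlapped in range except in 3 places. These were EDS5 between Delta28 ABA (16.9 CPM on average) and K>R 1-9 ABA leaves (13.7 CPM), NPR1 between K>R 3 ABA (33.0 CPM) and WT ABA leaves (21.3 CPM), and NPR3 between Delta28 ABA (54.2 CPM) and K>R 1-9 mock leaves (35.6 CPM). The nearest EDS5 libraries there were at 14.23 and 14.17 CPM (187 and 159 counts), a gap within counting error. How often all genes show such gaps was not counted, so the 3 places are a description only.

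For each member the 3 other genes with the most similar pattern were found by Pearson's r of mean log2(CPM + 1) over the 8 group means, as a description without a test. NPR3 was most like CZF1 (r = 0.984), ERD15 (r = 0.970) and WRKY40 (r = 0.967), and NPR1 most like CALS1 (r = 0.982) and HKL1 (r = 0.981). PR5 was most like BAM5 (r = 0.939), WRKY70 most like AT2G41705 (r = 0.948) and ICS1 most like PRMT4B (r = 0.969). EDS1 led with AT1G74270 (r = 0.988), PAD4 with AT4G28440 (r = 0.988), EDS5 with AT3G57170 (r = 0.986) and PBS3 with AT2G21190 (r = 0.995). These genes were picked as the highest of all 13874 tested.

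Other genes of salicylate metabolism and signalling were called with ABA at a share near that of all genes. Of 55 genes listed, 43 were tested and 4 had too few counts (UGT74F1, MES1, FMO1 and PR3). The other 8, PR1 among them, have a single exon and had no entry in the data. Among the tested genes named below, PAL1, PAL2, AIM1, MES9, SNC1, PR4, PNP-A and the signalling genes marked so are minus-strand genes. Their deposited models lack the 3′ exon, as for such members above, so their levels rest on reads elsewhere in the gene. Averaged over genotypes 21 of 43 were called, 16 higher and 5 lower, beside the 43.5% of all genes given above, and the median log2 fold change was 0.10 beside -0.03 for all genes. All 6 tested synthesis genes were called. ICS2, the second isochorismate synthase gene, had a lowest, median and highest level of 26.6, 78.8 and 281 CPM in the 12 ABA libraries and 1.47, 7.14 and 25.0 CPM in the 12 mock libraries, so that the treatments did not overlap. It rose by a log2 fold change of 3.54 on average (SE 0.31) and was called in each genotype, at 4.59 in K>R 3, 3.75 in K>R 1-9, 2.47 in Delta28 and 3.37 in WT. ICS1 was called in none of these.

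Phenylalanine ammonia lyases, which open the other route to salicylate, were split. PAL4 rose (1.42) and PAL1 (-2.0), PAL2 (-2.90) and PAL3 (-0.87) fell, and AIM1, a beta-oxidation enzyme, rose by 0.47 on the log2 scale. PAL2 was at 0 to 2.02 CPM in ABA libraries and 1.23 to 19.7 CPM in mock libraries. The deposited models of the minus-strand genes PAL1 and PAL2 hold 946 of 2931 and 899 of 2887 bases, without the 3′ exon. Their falls therefore rest on few reads, 885 and 702 counts over all libraries.

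Of the 6 tested genes that modify salicylate 3 rose, a share near that of all genes. BSMT1, a methyltransferase that makes methyl salicylate, rose by 4.20 (SE 0.59), the glucosyltransferase UGT74F2 by 2.17 (SE 0.23) and the esterase MES9 by 1.72 (SE 0.37). UGT74F2 was at 106 to 752 CPM in ABA libraries and 38.6 to 108 CPM in mock libraries, and was called higher in all 4 genotypes. Its calls were lost without any 1 of 3 libraries in K>R 3 and of 4 in K>R 1-9 (adjusted p up to 0.125 and 0.0741 in edgeR), and in K>R 3 with a separate fit (0.0767). ALD1, which starts pipecolate synthesis, rose by 2.31 (SE 0.52).

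Of 15 signalling genes 5 were called, beside 43.5% of all genes, and all 5 were higher: WRKY18 (1.54), TGA1 (1.42), WRKY53 (1.09), TGA7 (0.80) and TGA5 (0.39). NPR4, TGA4, WRKY38, WRKY46, WRKY53, WRKY54 and WRKY62 are minus-strand genes without the 3′ exon, with 113 to 643 counts over all libraries. Of these WRKY53 alone was called, and the lack of a call in the others says little. The TGA factors are DNA-binding partners of NPR1. TGA1 was called in each genotype, but the calls in K>R 3, K>R 1-9 and WT were lost without any 1 of 6, 5 and 2 of their 6 libraries (adjusted p up to 0.168, 0.113 and 0.0839 in edgeR), and that in K>R 3 also with scaling by library total (0.0663). Of 13 upstream regulators 6 were called, near the share of all genes: CBP60A (0.85), CAMTA2 (0.46), CAMTA3 (0.42) and ADR1-L2 (0.37) rose, and ACD6 (-2.03) and SNC1 (-0.36) fell. Of 2 outputs, the minus-strand genes PR4 and PNP-A, 0 were called in edgeR, and 0 had an unadjusted p below 0.05. Both deposited models lack the 3′ exon, so this says little on the outputs. ADR1-L2, WRKY53, SNC1 and TGA5 lost their call without any 1 of 20, 14, 12 and 2 of the 24 libraries, and the other 17 held without each.

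**Figure D5:**
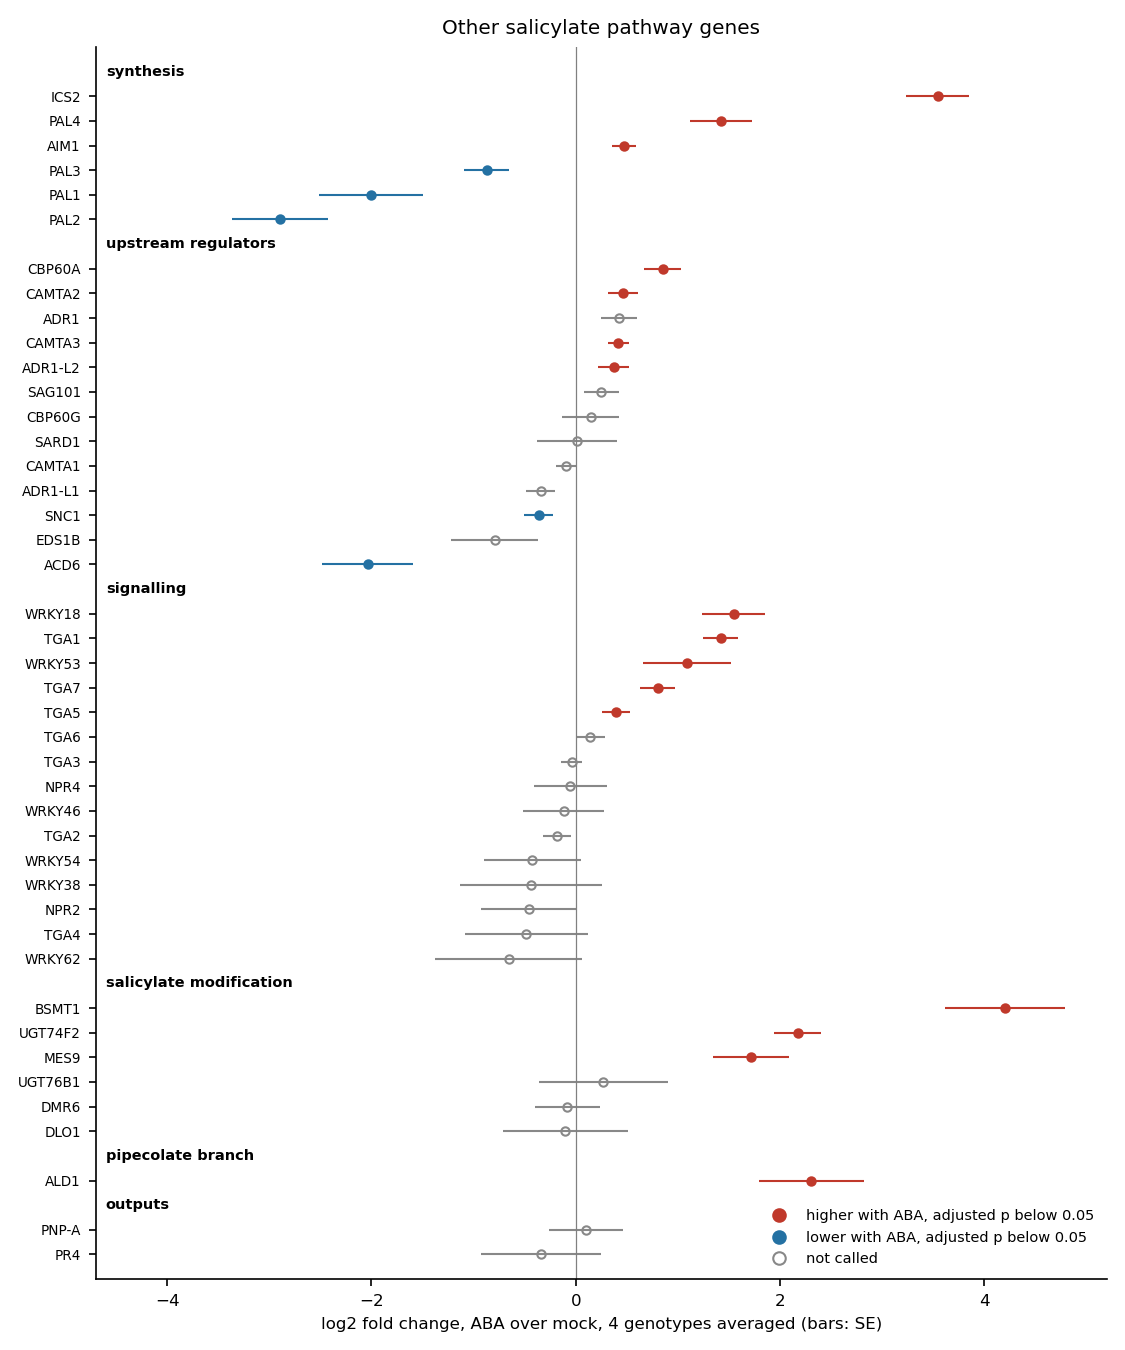
Log2 fold change with ABA, averaged over the 4 genotypes, of the 43 other genes tested (horizontal axis), grouped by list. Bars are SE, red symbols were called higher, blue symbols lower and open grey symbols not called. BSMT1 (4.20) and ICS2 (3.54) lie farthest right and PAL2 (-2.90) farthest left.

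Against WT, with both treatments averaged, 6 of these 43 genes were called in K>R 1-9, all higher, beside 5.31% of all genes. BSMT1 was at 311, 46.2 and 513 CPM in K>R 1-9 ABA and 107, 29.6 and 9.40 CPM in K>R 1-9 mock leaves. WT leaves had 29.7, 39.8 and 7.89 CPM with ABA and 0.203, 4.47 and 0.0937 CPM in mock. All K>R 1-9 libraries were above those of WT under the same treatment. Its log2 fold change was 5.03 (SE 0.90, adjusted p = 0.00391 in edgeR), and the call held without each library in turn. The others were DLO1 (3.25) and DMR6 (1.60), hydroxylases that degrade salicylate, ALD1 (2.83), MES9 (1.89) and the immune receptor gene ADR1 (0.86), each lost without any 1 of 5 to 11 of the 12 libraries. The count was 3 with scaling by library total only and 1 to 7 without single libraries. K>R 3 had 0 of 43 called against WT in edgeR, with 21 at an unadjusted p below 0.05, beside 2411 of all 13874 genes. DESeq2 called 6 there, and the median log2 fold change was 0.58 beside 0.01 for all genes. Delta28 had 0 called, with 7 at an unadjusted p below 0.05 (1958 of all 13874 genes) and 1 called by DESeq2. Between lines, 5 of 43 were called in K>R 1-9 against Delta28 (all genes 4.43%). In K>R 3 against Delta28, 4 were called (all genes 3.30%). PNP-A was higher in K>R 1-9 (2.67) and in K>R 3 (2.57) than in Delta28. CAMTA3 was higher in K>R 1-9 (0.67) and PAL4 lower in K>R 3 (-2.50) than in Delta28. These calls held without each library in turn, and ALD1, BSMT1, DLO1 and TGA3 lost theirs without single libraries. The part of the HTA11 levels of these lines, given above, was not tested.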

How the data were processed

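RNA of leaves (24 libraries, 8 groups of 3) was read from the 3′ end with the QuantSeq FWD kit. Trim Galore, STAR and RSEM are named in the submitters' processing notes. The sources used here give no version, genome build or annotation, so no coordinates or sequences are printed and a search of promoters was not run. The authors deposited RSEM expected counts per gene for 22279 genes a library, of which 1.21% to 2.36% were not whole, and these were rounded. In 99.3% of 11674 genes with 1 transcript of several exons, the deposited length equals that of the TAIR10.1 RefSeq transcript without its exon of lowest coordinate.

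Levels were scaled to the library total (CPM). Genes were filtered by filterByExpr (13874 kept), scaled by TMM (factors 0.886 to 1.135) and fitted over all 24 libraries with 8 group means in edgeR 4.0.16 (R 4.3.3, limma 3.58.1) by the quasi-likelihood test, with Benjamini-Hochberg adjustment over all tested genes in each of 20 comparisons. The SE is the log2 fold change over the root of its F value. Depth was 1565518 to 15086279 counts, and floors of 3 counts cover counting error only. The labels call replicates biological triplicates; if leaves of a group shared plants or trays, p-values measure only the spread between these samples. Alternatives were RLE scaling, library total only, no filter, DESeq2 1.42.0, a fit with the replicate number, separate fits, and leaving out libraries. Replicate numbers of the labels did not pair the samples. The fit was tested on simulated data. Correlations used Python 3.11.15 and scipy 1.17.1. All 10 members were named, with every called gene of the pathway lists open to naming and the 3 genes most alike to each member. The members and lists were chosen with earlier results of these data known.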

Additional observations from a re-analysis of the deposited data

How the results depend on the processing

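No result reversed under any alternative run. The count of members called moved by over 1.5 times in these cases, and the cause was not tested. ABA in WT (2 called) gave 1 with the replicate block, 0 with replicate 2 of both WT mock and K>R 3 mock left out, and 0 to 2 without single libraries. Without single libraries ABA gave 0 to 2 in Delta28 (2), 0 to 1 in K>R 1-9 (2) and 0 to 1 in K>R 3 (0). K>R 1-9 against WT in mock leaves (0) gave 1 in DESeq2. K>R 3 against WT averaged over treatments (0) gave 3 in DESeq2 and 0 to 4 without single libraries. K>R 1-9 against Delta28 (1) gave 0 with the replicate block and 0 to 1 without single libraries. K>R 3 against Delta28 (0) gave 1 by library total, 2 in DESeq2 and 0 to 5 without single libraries. K>R 3 against K>R 1-9 (0) gave 1 by library total, 2 in DESeq2 and 0 to 2 without single libraries.

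The replicate numbers did not pair the samples: in 0 of 28 pairs of groups were all correlations above 0.1, and 55 of 168 correlated best with their own number. Scaling by library total only moved the median of all genes to -0.168 in K>R 1-9 against WT, and the share of calls that were higher to 20.5%, against 50.2% with TMM; PR5 stayed called. It moved that median to 0.151 in K>R 3 against K>R 1-9, -0.104 in Delta28 against WT and -0.131 for ABA in Delta28. The separate fit was not run for the average over 4 genotypes, which uses all groups. Depth limits EDS1, with 560 counts in all, and PR2, with 1. With the replicate block 2 of the 43 other pathway genes were called in K>R 1-9 against WT, and 6 without it.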
